A study of Mus musculus with 12 samples.

Results

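The response of the liver to an ethanol diet that WT mice and mice without AhR in hepatocytes had in common was described across all genes. Every one of the 12 RNA-seq libraries of the series entered the comparison, 6 from the ethanol diet and 6 from the control diet. The model was additive: it held a genotype term and a single diet term, so that each gene received 1 diet effect over both genotypes, and a separate fit within each genotype gave the direction there. A gene was counted as common when the additive diet effect passed an adjusted *P* value under 0.05 with a fold change (FC) above 1.5, and when its FC had the same sign in WT and in *Ahr* HKO livers. Of 24532 genes listed, 14038 passed the filter on low counts and were tested, and 1102 were common, 626 higher and 476 lower on the ethanol diet.

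The series comprised 4 groups of 3 livers, WT on the control diet, WT on the ethanol diet, *Ahr* HKO on the control diet and *Ahr* HKO on the ethanol diet. All were male C57BL/6 mice, 10 to 12 weeks old when the diets began, and every mouse carried the floxed *Ahr* alleles (*Ahr* fl/fl). *Ahr* HKO mice also carried Alb-Cre, in which the albumin promoter drives the recombinase in hepatocytes, so *Ahr* stays intact in the other cells of the liver, and the WT mice were littermates without Cre. The Lieber-DeCarli liquid diet held ethanol at 5% of its volume and 36% of its calories, the control liquid diet was matched for calories, and both were given for 5 weeks. Each library was made from the RNA of 1 liver, and levels are given as CPM, counts scaled to a common library size, after TMM scaling.

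AhR, the aryl hydrocarbon receptor, is a ligand-activated transcription factor that induces cytochrome P450 enzymes of the Cyp1 family, and it is one of several sensors through which hepatocytes react to foreign compounds. CAR and PXR are nuclear receptors that induce the Cyp2b, Cyp2c and Cyp3a enzymes, and NRF2 is a transcription factor that induces glutathione transferases and other antioxidant genes. Ethanol itself is oxidised in hepatocytes by alcohol dehydrogenase and aldehyde dehydrogenases and by CYP2E1, and chronic intake is known for changes in drug metabolism, retinoid turnover, lipid storage and iron handling of the liver.

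Between 46306518 and 74336255 reads were counted on genes per library. The first principal component carried 29.4% of the variance and set the *Ahr* HKO control livers, at 61.5 to 68.5, apart from the other 9 livers, at -39.6 to 0.779. *Ahr* itself was not lower in the *Ahr* HKO libraries, with 18.3 ± 1.79 CPM in WT control livers and 56.7 ± 13.4 CPM in *Ahr* HKO control livers (mean ± SD, n = 3 livers), so a count over the whole gene gives no check of the deletion of its second exon. Hepatocyte markers summed to 75816 to 118557 CPM in every liver. Neither the labels nor the methods say whether the livers of a group came from separate cages or feeding runs, so the *P* values measure only the spread between these livers.

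The first question was how many genes were called for the diet over both genotypes and within each. An additive call does not show an equal effect in both. In the additive fit 1105 genes were called, which is 7.87% of the genes tested, 626 higher and 479 lower on the ethanol diet, and 3 of them had opposite signs in the genotypes. The common genes higher on the ethanol diet were 4.46% of those tested, and the common genes lower on it were 3.39%. Fitted within each genotype, 949 genes (6.76%) were called in WT and 3090 (22%) in *Ahr* HKO livers. These fits share no library. They called 245 genes (1.75%) in the same direction in both, which is 25.8% of the genes called in WT and 7.93% of those called in *Ahr* HKO livers, and 99 genes in opposite directions. Leaving out 1 of the WT control livers lowered the 245 to 153, 112 or 110 genes.

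The overlap was next counted by direction. For comparison, 1447 of all 14038 tested genes were called higher and 1643 lower in *Ahr* HKO livers. Of the 472 genes called higher in WT, 172 (36.4%) were also called higher in *Ahr* HKO livers and 38 (8.05%) were called lower there. The median log2 FC of the 472 was 1.12 in WT and 0.57 in *Ahr* HKO livers. Of the 477 genes called lower in WT, 73 (15.3%) were also called lower in *Ahr* HKO livers and 61 (12.8%) were called higher there. The median of the 477 was -0.97 in WT and 0.01 in *Ahr* HKO livers. Over all 14038 genes the FC had the same sign in both genotypes for 7411 (52.8%). Across genes, which are not independent replicates, the FCs of the genotypes had a Pearson r of 0.16 and a Spearman rho of 0.08.

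**Figure D1:**
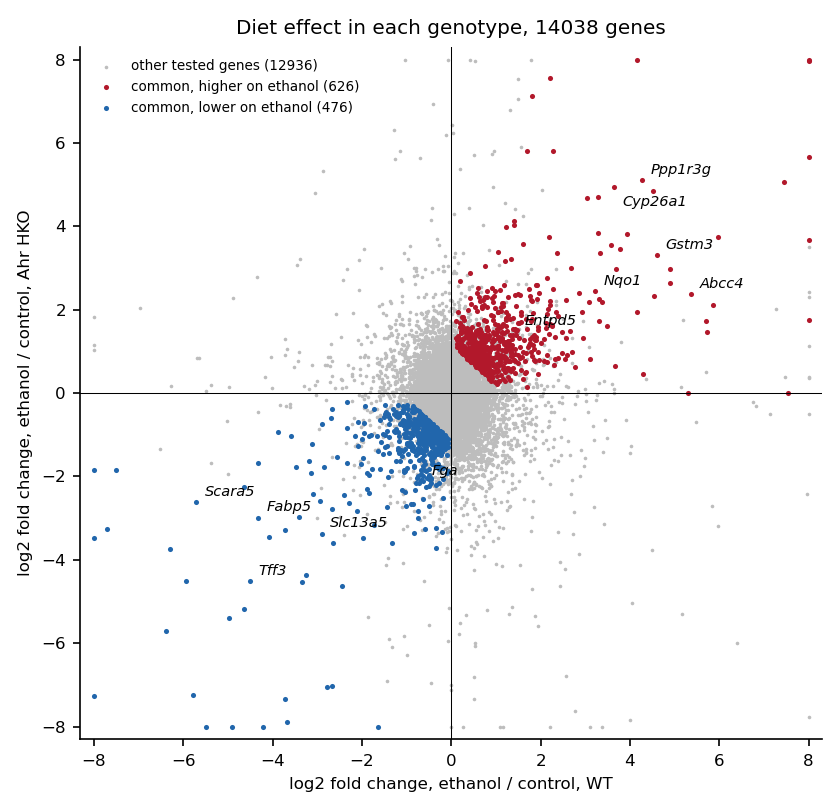
Each point is 1 of 14038 tested genes, with the log2 FC of ethanol against control diet in WT livers on the x axis and in *Ahr* HKO livers on the y axis (3 livers per group), and the 36 genes beyond 8 on either axis are drawn at the edge. Red and blue points are the 626 and 476 common genes, which lie in the upper right and lower left by construction, while grey points spread over all quadrants.

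Among the 1102 common genes, 245 were called in both genotypes, 164 in WT alone, 571 in *Ahr* HKO livers alone and 122 in neither fit of 6 livers. For 669 of them (60.7%) the diets were fully separated within both genotypes and in the same direction. This held for 10.3% of all genes tested. The common genes were chosen in these same livers, so a higher share among them was fixed by the choice. The interaction of genotype and diet was called for 233 common genes (21.1%), against 3137 of all genes (22.3%). The median log2 FC of common genes higher on ethanol was 0.83 in WT and 1.09 in *Ahr* HKO livers, and that of common genes lower on ethanol was -0.71 and -1.09. Of the common genes, 624 (56.6%) were called in every 1 of the 12 fits that each omitted a single liver. For 2 common genes a genotype had no count in any of its livers, so that a direction there is void, and the cystine transporter gene *Slc7a11*, read only in WT livers on ethanol, is 1 of them.

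The genes with the smallest *P* values were enzymes of glycosylation and detoxification, among genes with a mean of at least 1000 counts. *Entpd5* (chr12:84373875-84409029, GRCm38), which encodes a nucleotide hydrolase of the endoplasmic reticulum that acts in protein glycosylation, was read at 161, 126 and 128 CPM in WT control livers and at 406, 366 and 355 CPM in WT livers on ethanol. In *Ahr* HKO livers its levels were 88.7, 93.5 and 82.2 CPM on the control diet and 267, 237 and 236 CPM on ethanol. All 6 ethanol livers were above all 6 control livers, and the log2 FC was 1.46 ± 0.09 (SE; adjusted *P* = 9.12e-06), with 1.45 in WT and 1.49 in *Ahr* HKO livers. Values beside a gene that are not in CPM are log2 FCs, with the SE after the ± sign, from the additive fit unless a genotype is named.

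*Gstm4* (chr3:108030571-108045179), a glutathione transferase of the mu class, had 31.2, 26.2 and 23.9 CPM in WT control livers, 164, 137 and 176 CPM in WT ethanol livers, 22.8, 15.3 and 25 CPM in *Ahr* HKO control livers and 115, 88.8 and 91.7 CPM in *Ahr* HKO ethanol livers. It rose by a log2 FC of 2.39 ± 0.14 (adjusted *P* = 9.12e-06). *Ephx1*, the microsomal epoxide hydrolase that opens reactive epoxides made by P450 enzymes, went from 219 ± 43.1 to 948 ± 70.1 CPM in WT and from 158 ± 8.77 to 507 ± 69.1 CPM in *Ahr* HKO livers (mean ± SD, n = 3), a log2 FC of 1.90 ± 0.13 (adjusted *P* = 1.9e-05). *Ugt2b34*, a UDP-glucuronosyltransferase, showed 310.3, 326 and 279.7 (control) and 592, 559 and 594 (ethanol) CPM in WT. In *Ahr* HKO livers the values were 177, 169 and 192 (control) and 429, 408 and 449 (ethanol) CPM. It rose by 1.09 ± 0.09 (adjusted *P* = 8.28e-05). For these 3 enzymes, too, each of the 6 ethanol livers stood above each of the 6 control livers.

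For 398 common genes the FC was above 1.5 and the diets were apart in each genotype, at a mean of at least 50 counts, and the 10 with the largest increase among these 398 were mostly enzymes and transporters of foreign compounds. *Cyp2b10*, the P450 used as the marker of CAR activity, had 0.262, 0 and 0 CPM in WT control livers and 0.817, 0.239 and 6.78 CPM in *Ahr* HKO control livers. On ethanol it reached 408, 46.8 and 94.5 CPM in WT and 172, 83.6 and 138 CPM in *Ahr* HKO livers, a log2 FC of 7.54 ± 1.29 (adjusted *P* = 0.00354). Every ethanol liver exceeded every control liver, although the WT ethanol livers differed widely among themselves. Its neighbour *Cyp2b13*, a P450 found mainly in female liver, had no read in any WT control liver and 0, 0 and 0.202 CPM in *Ahr* HKO control livers. On ethanol it had 144, 129 and 52.3 CPM in WT, at least 1804-fold higher when 3 counts per library are taken as the floor, and 36.6, 3.47 and 6.85 CPM in *Ahr* HKO livers (additive adjusted *P* = 0.000238). *Cyp2a22* was also among these 10, but with very unequal parts: 0.352 to 169 CPM in WT and 3.37 to 11.4 CPM in *Ahr* HKO livers (group means). Its additive call was kept in 6 of 12 fits that left out 1 liver each, with log2 FCs from 3.86 to 6.12. Reads of the Cyp2a and Cyp2b genes can be shared between near-identical copies, so single values in these families are uncertain.

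*Cyp26a1*, the enzyme that breaks down retinoic acid, was at 5.57, 4.36 and 4.72 CPM in WT control livers and at 2.58, 1.71 and 1.65 CPM in *Ahr* HKO control livers. On ethanol its level was 50.7, 41.3 and 89.4 CPM in WT and 111, 23.8 and 48 CPM in *Ahr* HKO livers. No ethanol liver came near the control range, and the log2 FC was 4.27 ± 0.42 (adjusted *P* = 0.00018), 3.64 ± 0.30 in WT and 4.94 ± 0.60 in *Ahr* HKO livers. *Cyp26a1* is a known target of the retinoic acid receptors, so a match in its window tests nothing. The letters searched were an exact pair of AGTTCA spaced by 5 bases. The receptors also bind other letters, so the share below is that of this narrow pattern only. Such a pair, on either strand, was found in the RefSeq windows (250 bases before to 50 after a start site) of 3 of 11127 tested genes with a window, 0.0270% of them: *Cyp26a1*, *Blvrb* and *Tnfsf13b*. The 250 bases before the start sites of the 2 common genes among them are shown because both were common and higher, with the matching letters, which run on the opposite strand, in capitals (RefSeq, GRCm38.p6, 5′ to 3′ on the strand of the gene).
*Cyp26a1*, chr19:37697558-37697807, + strand: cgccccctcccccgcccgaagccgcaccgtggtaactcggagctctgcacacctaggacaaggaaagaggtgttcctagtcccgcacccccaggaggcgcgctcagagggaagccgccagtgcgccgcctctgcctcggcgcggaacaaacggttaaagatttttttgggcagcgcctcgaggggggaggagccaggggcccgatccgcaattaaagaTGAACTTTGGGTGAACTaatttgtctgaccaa
*Blvrb*, chr7:27452168-27452417, + strand: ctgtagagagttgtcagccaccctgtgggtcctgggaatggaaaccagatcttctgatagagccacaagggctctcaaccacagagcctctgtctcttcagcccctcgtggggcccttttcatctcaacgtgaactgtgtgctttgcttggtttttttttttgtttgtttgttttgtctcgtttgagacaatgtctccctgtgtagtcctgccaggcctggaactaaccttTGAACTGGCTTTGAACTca

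The match lies 32 to 16 bases before the start of *Cyp26a1* and 19 to 3 bases before that of *Blvrb*. *Blvrb*, biliverdin reductase B, had 110, 119 and 95.6 CPM in WT control, 258, 257 and 291 CPM in WT ethanol, 105, 74.6 and 102 CPM in *Ahr* HKO control and 224, 289.8 and 226 CPM in *Ahr* HKO ethanol livers, a log2 FC of 1.36 ± 0.11 (adjusted *P* = 8.28e-05). *Tnfsf13b*, which encodes the B cell factor BAFF, had a log2 FC of 0.14 ± 0.33 (adjusted *P* = 0.808). *Blvrb* and *Tnfsf13b* are named for the match alone, after their values were seen, and a match of letters does not show binding.

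*Ppp1r3g*, a subunit that brings protein phosphatase 1 to glycogen, was barely read on the control diet, at 0.568, 0.446 and 0.307 CPM in WT and 0.196, 0 and 0.182 CPM in *Ahr* HKO livers. The ethanol livers held 3.83, 10.8 and 10.7 CPM in WT and 2.07, 5.97 and 5.16 CPM in *Ahr* HKO, and the log2 FC was 4.62 ± 0.51 (adjusted *P* = 0.000329). *Abcc4*, an efflux pump of the basolateral membrane for bile acids and drug conjugates, went from 2.03, 1.64 and 2.29 to 105, 90.5 and 49.6 CPM in WT and from 3.59, 2.97 and 2.52 to 11.3, 29.4 and 6.18 CPM in *Ahr* HKO livers. It rose in both, but less in *Ahr* HKO livers, where the log2 FC was 2.37 ± 0.54 against 5.37 ± 0.32 in WT (interaction adjusted *P* = 0.0108). The carbonyl reductase gene *Cbr3* rose from 0.774 to 22.9 CPM in WT and from 1.15 to 9.06 CPM in *Ahr* HKO livers (group means), a log2 FC of 3.91 ± 0.48 (adjusted *P* = 0.000592). The noncoding gene *Dio3os* was also among the 10, from 0.521 to 4.24 CPM in WT and from 0.166 to 3.99 CPM in *Ahr* HKO livers (3.76 ± 0.72, adjusted *P* = 0.00585).

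**Figure D2:**
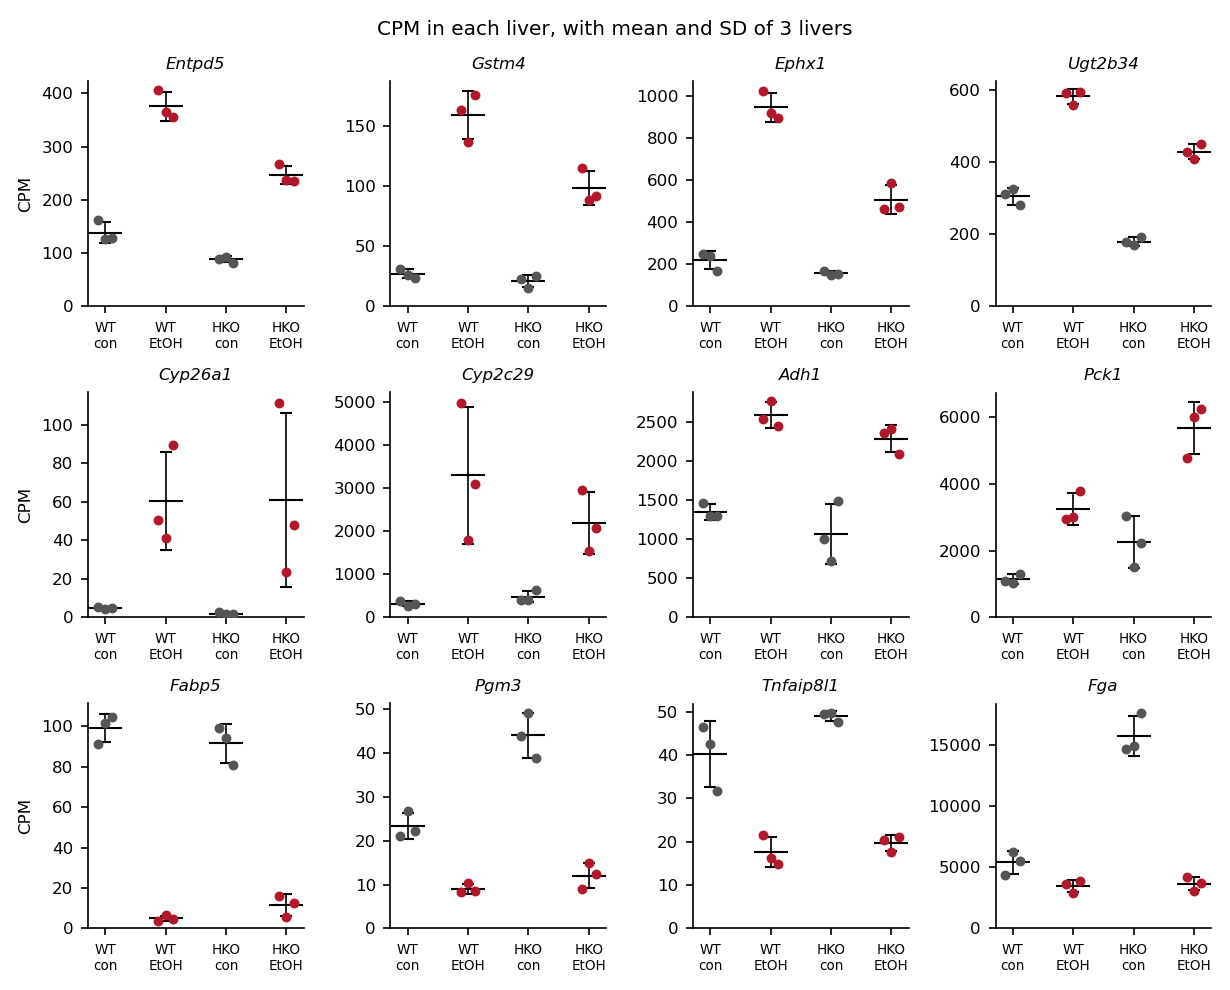
CPM of 12 genes in each liver, with the 4 groups on the x axis, 1 point per liver, grey for the control and red for the ethanol diet, and the mean and SD of the 3 livers in black. The first 8 genes are higher and the last 4 lower on the ethanol diet in both genotypes, and *Fga* starts from a higher level in *Ahr* HKO than in WT control livers.

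For all list counts below, 4.46% of all tested genes were common and higher and 3.39% common and lower. The gene lists of foreign compound metabolism held only increases among their common members. Of 25 tested genes that CAR and PXR induce (with the receptors), 16 were common and higher, none lower, and 10 were called in both genotypes. The median log2 FC of the list was 1.34, against -0.01 over all genes tested. *Nr1i3*, which encodes CAR itself, had 103, 93.7 and 84.9 (control) and 159, 149 and 157 (ethanol) CPM in WT. The *Ahr* HKO livers had 58.8, 45.2 and 77.2 (control) and 135, 113 and 122 (ethanol) CPM. It had a log2 FC of 0.88 ± 0.12 (adjusted *P* = 0.00132). The diets did not overlap in either genotype. *Cyp2c29*, an abundant P450 of mouse liver, showed 379.9, 274 and 303 (control) and 4979.9, 1805 and 3086 (ethanol) CPM in WT. *Ahr* HKO livers held 402, 402 and 634 (control) and 2956, 1543 and 2062 (ethanol) CPM. It rose by 2.78 ± 0.32 (adjusted *P* = 0.000415). *Cyp2a5*, which hydroxylates coumarin and nicotine, rose by 3.56 ± 0.31 (adjusted *P* = 0.00011), with log2 FCs of 3.29 in WT and 3.83 in *Ahr* HKO livers. *Cyp3a11*, the main target of PXR, was common at a log2 FC of 1.34 ± 0.27 (adjusted *P* = 0.00768), and its FC within WT alone did not pass (0.94 ± 0.37, adjusted *P* = 0.159). *Por*, the reductase that feeds electrons to P450 enzymes, had log2 FCs of 0.29 in WT and -0.33 in *Ahr* HKO livers and was not called (additive adjusted *P* = 0.95). The gene of PXR, *Nr1i2*, was also not called, its FC being under 1.5 (0.48 ± 0.14, adjusted *P* = 0.034).

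Of 33 tested genes of the NRF2 response and the glutathione transferases, 19 were common and higher and none lower, 12 of them called in both genotypes, with a list median of 0.85. *Slc7a11* is counted among the 19, though its direction in *Ahr* HKO livers is void. *Gstm3* had 25.4, 15.7 and 18.3 CPM in WT control and 567, 480.1 and 381 CPM in WT ethanol livers. Its levels in *Ahr* HKO livers were 12.4, 10.3 and 22.7 (control) and 146, 151 and 151 (ethanol) CPM. Its log2 FC of 3.95 ± 0.30 (adjusted *P* = 5.07e-05) was smaller in *Ahr* HKO livers (3.30) than in WT (4.60; interaction adjusted *P* = 0.0347). The most abundant of the class, *Gstm1*, rose from 624 ± 118 to 5266 ± 939 CPM in WT and from 617 ± 286 to 2796 ± 470.5 CPM in *Ahr* HKO livers, and *Gsta2* from 4.18 to 124 and from 7.14 to 44.7 CPM. The mu class genes *Gstm1*, *Gstm2*, *Gstm3*, *Gstm4* and *Gstm5* lie next to each other on chromosome 3 and were all common, and reads shared between these copies would move their values together. *Mgst3*, a microsomal member, rose by 1.94 ± 0.30 (adjusted *P* = 0.00198). Outside the transferases, *Gclc*, which limits glutathione synthesis, was common at a log2 FC of 0.91 ± 0.28 (adjusted *P* = 0.0446), with log2 FCs of 1.69 in WT and 0.15 in *Ahr* HKO livers, and it kept its call in 2 of 12 fits without 1 liver (0.72 to 1.09). Members that were not common included NRF2 itself and several of its targets: *Nfe2l2*, the gene of NRF2, had log2 FCs of 0.66 in WT and 0.43 in *Ahr* HKO livers, *Hmox1* of 1.67 and -0.37, *Txnrd1* of 0.73 and -0.46, and *Srxn1* of 2.20 and -2.18. The antioxidant letters TGACNNNGC stood in the windows of 2 of the 16 common list members with a window (12.5%), against 16.7% of the windows of all tested genes.

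Of 10 tested genes known as AhR targets, 6 were common and higher, and 3 were called in both genotypes, *Ahr* being the targeted gene in 6 of the 12 mice. *Cyp1a2*, an abundant P450 that activates arylamines, went from 617, 398 and 456 to 1212, 1062 and 992 CPM in WT. In *Ahr* HKO livers it went from 90.7, 112 and 258 to 629, 684 and 658 CPM, so the ethanol livers stood above the control livers in both, at a log2 FC of 1.62 ± 0.27 (adjusted *P* = 0.00315; interaction adjusted *P* = 0.154). *Nqo1*, a quinone reductase that NRF2 also induces, had 3.41, 1.79 and 2.72 (control) and 26.6, 28.2 and 18.2 (ethanol) CPM in WT. Its *Ahr* HKO levels were 1.7, 1.25 and 2.44 (control) and 11.2, 11.3 and 6.88 (ethanol) CPM. This gave a log2 FC of 2.84 ± 0.25 (adjusted *P* = 0.000116). *Cyp1a1*, the classical AhR reporter, was low in every liver, at 0.349, 0.214 and 0.204 (control) and 1.36, 1.02 and 1.66 (ethanol) CPM in WT. Among *Ahr* HKO livers it had 0.898, 0.444 and 0.827 (control) and 1.03, 1.23 and 1.67 (ethanol) CPM. Over both genotypes the log2 FC was 1.58 ± 0.34 (adjusted *P* = 0.0108). The FC of *Cyp1a1* within *Ahr* HKO livers alone did not pass (0.85 ± 0.36, adjusted *P* = 0.115). *Htatip2*, another list member, rose by 1.39 ± 0.23 (adjusted *P* = 0.00285), more in WT (1.98) than in *Ahr* HKO livers (0.80; interaction adjusted *P* = 0.0153). The xenobiotic letters TNGCGTG were in none of the 5 windows of common members, and in 9.18% of the windows of all tested genes.

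**Figure D3:**
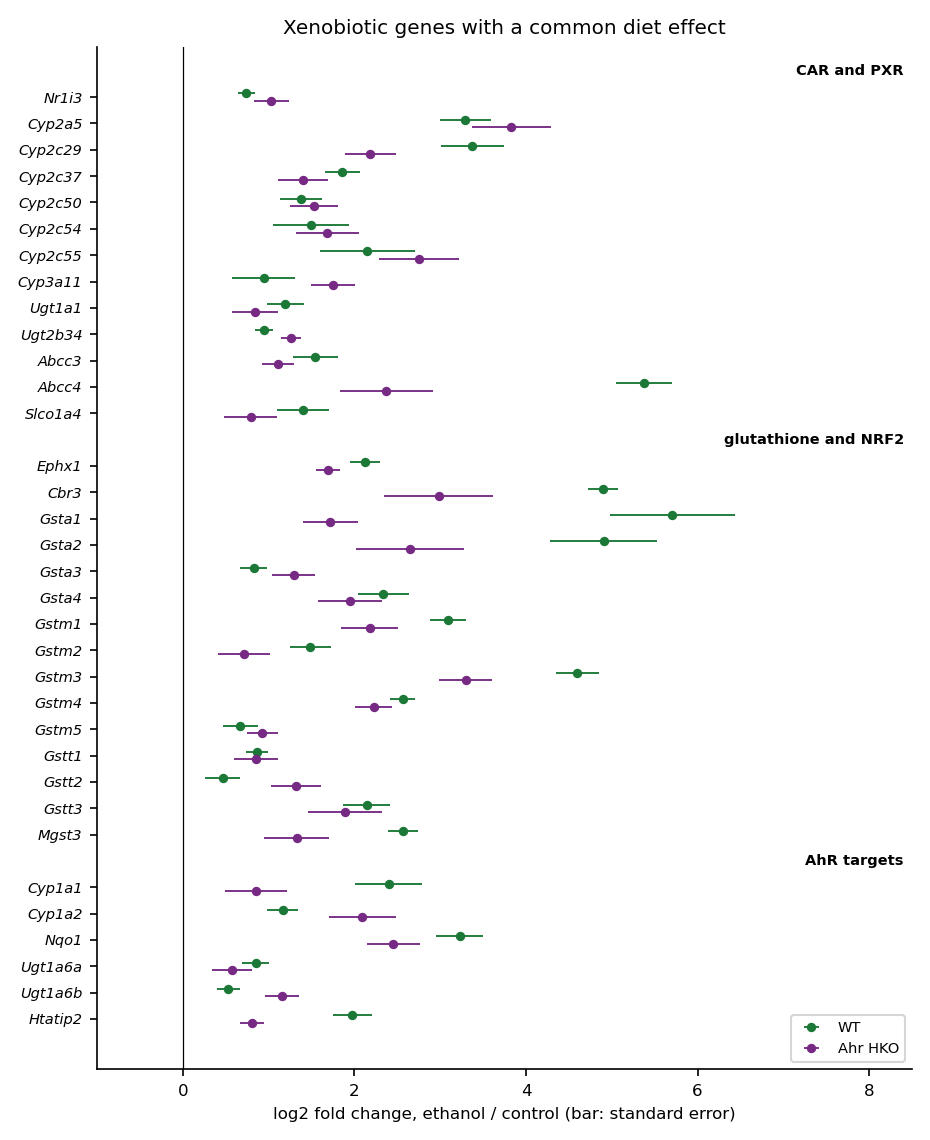
Log2 FC of ethanol against control diet in WT (green) and in *Ahr* HKO livers (purple), fitted with 6 livers each, with the standard error as a bar, for common genes of the CAR and PXR, glutathione and NRF2, and AhR target lists (*Cyp2b10*, *Cyp2b13*, *Cyp2a4*, *Gclc*, *Gpx2*, *Gpx4* and *Slc7a11* are not drawn). All points lie right of 0, and *Abcc4*, *Cbr3*, *Gsta1* and *Gsta2* have the widest gaps between the genotypes.

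In ethanol oxidation, alcohol dehydrogenase and several aldehyde dehydrogenases rose. Of 15 tested genes, 5 were common and higher and none lower. *Adh1*, the alcohol dehydrogenase that carries out most hepatic ethanol oxidation, had 1467, 1294 and 1293 CPM in WT control and 2538, 2779 and 2458 CPM in WT ethanol livers. In *Ahr* HKO livers the values were 1004, 728 and 1486 (control) and 2367, 2416 and 2091 (ethanol) CPM. The diets did not overlap across all 12 livers, at a log2 FC of 1.02 ± 0.15 (adjusted *P* = 0.00181). *Aldh1a1*, which oxidises acetaldehyde and retinaldehyde in the cytosol, rose by 0.87 ± 0.16 (adjusted *P* = 0.00474), and the mitochondrial *Aldh1b1* by 1.18 ± 0.24 (adjusted *P* = 0.008). *Aldh2*, the main mitochondrial acetaldehyde dehydrogenase, was not called (0.21 in WT and 0.35 in *Ahr* HKO livers, additive adjusted *P* = 0.114). *Cyp2e1*, whose protein is the ethanol-inducible P450, had log2 FCs of opposite sign, -0.79 ± 0.15 in WT and 0.39 ± 0.23 in *Ahr* HKO livers (interaction adjusted *P* = 0.00881), and was not called in the additive fit (adjusted *P* = 0.559).

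Of 22 tested genes of glucose production and use, 8 were common and higher and none lower. *Pck1*, which controls gluconeogenesis, was at 1092, 1017 and 1308 CPM in WT control and 2948, 3010.3 and 3788 CPM in WT ethanol livers. The *Ahr* HKO livers were at 3044, 1494 and 2227 CPM on the control diet and 4779.9, 5992 and 6257 CPM on ethanol, so that the *Ahr* HKO control livers overlapped with the WT ethanol livers while the diets were apart within each genotype. Its log2 FC was 1.42 ± 0.17 (adjusted *P* = 0.000536). *Khk*, which phosphorylates fructose, rose by 0.92 ± 0.14 (adjusted *P* = 0.00181), and *Fbp1*, a gluconeogenic phosphatase, by 0.66 ± 0.14 (adjusted *P* = 0.00795). *Ppargc1a*, a coactivator of gluconeogenic and mitochondrial genes, rose from 6.73 ± 0.938 to 10.1 ± 0.822 CPM in WT and from 4.4 ± 0.645 to 12.6 ± 0.93 CPM in *Ahr* HKO livers, with the larger effect in *Ahr* HKO livers (interaction adjusted *P* = 0.00852). The glucose transporter gene *Slc2a2* was not called (0.08 in WT and 0.38 in *Ahr* HKO livers).

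Lipid genes gave mixed counts. Of 39 tested genes of fatty acid oxidation and PPARA, the receptor that induces them, 8 were common and higher and 1 lower. The acyl-CoA thioesterases *Acot2* (1.53 ± 0.30, adjusted *P* = 0.00629), *Acot3* (3.43 ± 0.66, adjusted *P* = 0.00596) and *Acot4* (1.45 ± 0.26, adjusted *P* = 0.00417) rose. *Eci3*, a peroxisomal enoyl-CoA isomerase, had no read in any control liver and 3.55, 2.19 and 1.48 CPM in WT and 1.87, 0.509 and 0.0902 CPM in *Ahr* HKO livers on ethanol, at least 40.1-fold and 15.4-fold higher against a floor of 3 counts per library. *Cpt1a*, which admits fatty acids to mitochondria, was the member that fell, from 583 ± 8.07 to 386 ± 89.8 CPM in WT and from 581 ± 79.6 to 292 ± 47.3 CPM in *Ahr* HKO livers (-0.79 ± 0.14, adjusted *P* = 0.00433). *Ppara* itself had log2 FCs of -0.44 and -0.41 and was not called. In lipogenesis, 5 of 22 tested genes were common and higher, among them the malic enzyme *Me1* (1.19 ± 0.20, adjusted *P* = 0.00323) and the elongase *Elovl6* (0.84 ± 0.19, adjusted *P* = 0.0136), while *Fasn*, fatty acid synthase, had log2 FCs of -0.22 in WT and 0.84 in *Ahr* HKO livers. In the list of lipid droplets and lipoproteins, 3 of 26 were common and higher, among them *Hsd17b11* (0.72 ± 0.10) and *Hsd17b13* (0.77 ± 0.13), whose proteins sit on droplets. The droplet coat gene *Plin2* had opposite signs, 0.36 in WT and -1.21 in *Ahr* HKO livers, and was not common.

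**Figure D4:**
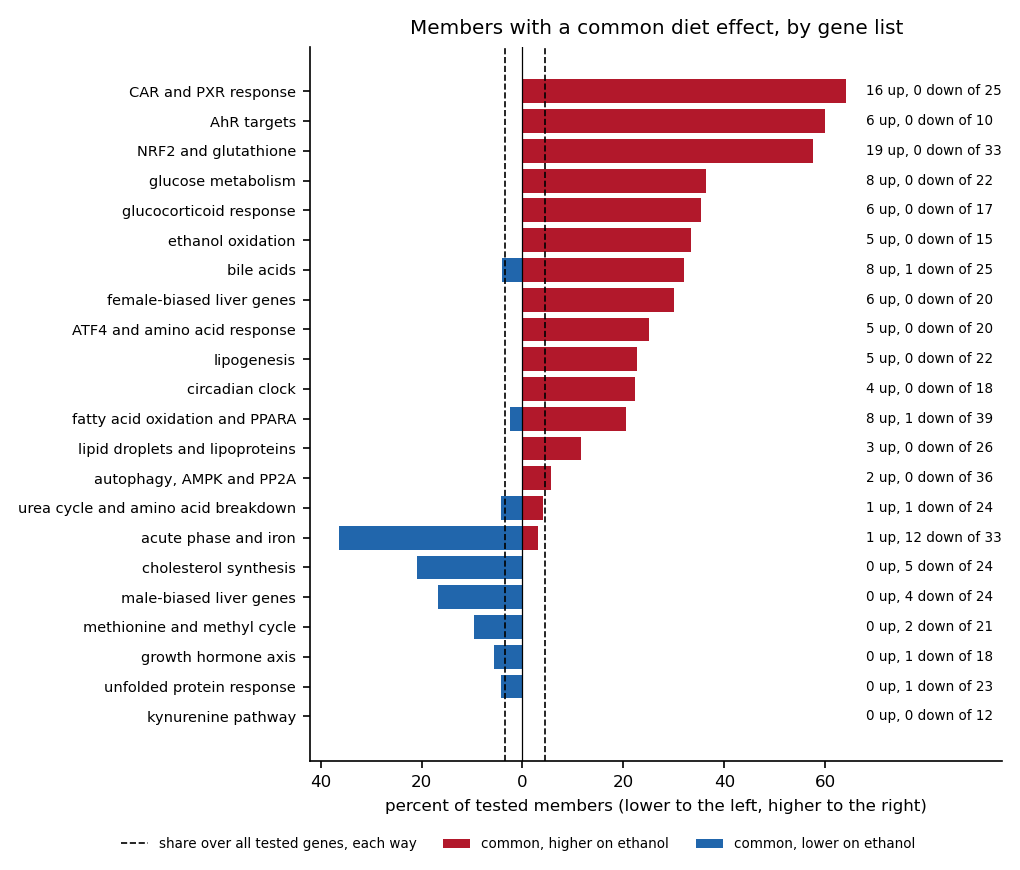
Percent of the tested members of each gene list that were common and higher (red, to the right) or lower (blue, to the left) on the ethanol diet, with the counts at the right and dashed lines at the shares over all tested genes, 4.46% and 3.39%. The CAR and PXR list has the longest bar to the right, with 16 of 25 members, and the acute phase and iron list the longest to the left, with 12 of 33.

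Among the decreases, those with the smallest *P* values at high counts were *Fabp5*, *Pgm3*, *Tnfaip8l1*, *Fam25c* and *Cpd*. *Fabp5* (chr3:10012585-10016610), a fatty acid-binding protein that is more common in skin and macrophages than in liver, had 91.5, 102 and 105 CPM in WT control and 3.74, 6.44 and 4.57 CPM in WT ethanol livers. The *Ahr* HKO livers had 99.3, 94.5 and 81 CPM on the control diet and 16.2, 5.66 and 12.7 CPM on ethanol, far apart in both genotypes, and the log2 FC was -3.65 ± 0.32 (adjusted *P* = 0.000116). *Pgm3*, an enzyme of the pathway to a sugar nucleotide for protein glycosylation, had 21, 26.7 and 22.2 (control) and 8.33, 10.4 and 8.44 (ethanol) CPM in WT. The *Ahr* HKO livers had 43.9, 49.3 and 38.9 (control) and 9.04, 14.8 and 12.3 (ethanol) CPM. The log2 FC was -1.62 ± 0.15 (adjusted *P* = 0.000126). *Tnfaip8l1*, a member of a family of lipid-binding proteins, had 46.5, 42.5 and 31.8 (control) and 21.4, 16.2 and 14.9 (ethanol) CPM in WT. *Ahr* HKO livers held 49.4, 49.8 and 47.7 (control) and 20.4, 17.7 and 21 (ethanol) CPM. It had a log2 FC of -1.26 ± 0.11 (adjusted *P* = 0.000126). None of the ethanol livers reached a control liver in these 3 genes. *Fam25c* fell by 1.90 ± 0.19 on the log2 scale (adjusted *P* = 0.000232), and *Cpd*, a carboxypeptidase of the secretory pathway, fell by 0.84 ± 0.09 (adjusted *P* = 0.000327).

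Among the same 398 genes, several of the 10 largest decreases were in genes of low level that varied among the control livers. *Slc13a5*, the citrate transporter of the hepatocyte membrane, had 1.55, 5.16 and 7.4 CPM in WT control and 12.8, 7.03 and 3.95 CPM in *Ahr* HKO control livers, and 0.604, 0.636 and 0.621 (WT) and 0.794, 0.787 and 0.699 (*Ahr* HKO) CPM on ethanol (-3.15 ± 0.38, adjusted *P* = 0.000497). The spread was wide on the control diet and narrow on ethanol. *Tff3*, a trefoil peptide of mucosal surfaces, had 3.27, 5.78 and 29.9 (WT) and 15, 7.93 and 2.88 (*Ahr* HKO) CPM on the control diet and 1.36, 0.239 and 0.159 (WT) and 0.539, 0.216 and 0.361 (*Ahr* HKO) CPM on ethanol (-4.51 ± 0.72, adjusted *P* = 0.00255). *Prtn3*, a protease of granulocytes, had 0.851, 6.19 and 12.8 (WT) and 44.1, 10.3 and 2.78 (*Ahr* HKO) CPM on the control diet and 0.34, 0.0636 and 0.382 (WT) and 0.765, 0.201 and 0.609 (*Ahr* HKO) CPM on ethanol (-4.94 ± 0.82, adjusted *P* = 0.00318). In all 3, and in *Crybb3* (0.786, 3.2 and 5.05 (WT) and 5.47, 2.35 and 1.27 (*Ahr* HKO) CPM on the control diet, log2 FC -3.19 ± 0.59), the same WT control liver and the same *Ahr* HKO control liver were the highest of their group. The same livers were the highest of their group for *Spp1*, a cholangiocyte and injury marker, at 33.1, 64.5 and 117 CPM (WT) and 462, 166 and 35 CPM (*Ahr* HKO). The summed neutrophil markers ranged from 3.97 to 5.42 CPM in WT control, 6.58 to 12.3 CPM in WT ethanol, 12.3 to 15.04 CPM in *Ahr* HKO control and 4.62 to 5.29 CPM in *Ahr* HKO ethanol livers, with 0 of 4 tested members common, so *Prtn3* and the list differed in direction in WT.

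*Scara5*, a ferritin receptor, fell from 13.1, 18 and 51.6 to 0.283, 0.223 and 1.03 CPM in WT and from 125, 115 and 58.5 to 3.3, 15.8 and 29.4 CPM in *Ahr* HKO livers (-3.98 ± 0.77, adjusted *P* = 0.00631), apart within each genotype but overlapping between them. *Adgrf1*, an adhesion receptor, fell from 10.6 to 0.053 CPM in WT and from 5.76 to 1.62 CPM in *Ahr* HKO livers (interaction adjusted *P* = 0.00199). *Fmn2*, an actin-nucleating formin, had no read in any WT ethanol liver, at least 37.3-fold lower than the WT control mean of 1.89 CPM, and went from 2.58 to 0.239 CPM in *Ahr* HKO livers. *A2m*, which encodes a protease inhibitor of plasma, had the largest additive decrease of the 398 (-8.20 ± 0.80), but it rests on *Ahr* HKO livers. They held 30.8, 5.02 and 9.22 CPM on the control diet and 0, 0.0617 and 0.0902 CPM on ethanol, whereas WT livers were near the floor of 3 counts on the control diet, with at most 4 counts, and had no read on ethanol. The tenth was *3110082I17Rik* (-2.48 ± 0.32, adjusted *P* = 0.0007).

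Acute phase genes, which hepatocytes switch on under IL-6 and STAT3, were among the common decreases. Of 33 tested acute phase and iron genes, 12 were common and lower and 1 higher. The list median was -0.87 in the additive fit, -0.39 in WT and -1.71 in *Ahr* HKO livers. Of the 33, 1 was called lower and 3 higher in WT, and 22 lower and 2 higher in *Ahr* HKO livers. The interaction was called for 12 of the 33. Of the 12 common decreases, 1, *Saa4*, was called lower in the fit within WT and all 12 in that within *Ahr* HKO livers. *Fga*, the fibrinogen alpha chain, had 4392, 6291 and 5527 CPM in WT control and 3626, 2902 and 3847 CPM in WT ethanol livers. Its levels in *Ahr* HKO livers were 14688, 14948 and 17689 (control) and 4176, 3069.9 and 3751 (ethanol) CPM. The ethanol livers of both genotypes lay in 1 range below the WT control livers, and the log2 FC was -0.63 ± 0.19 in WT (adjusted *P* = 0.0831) and -2.11 ± 0.20 in *Ahr* HKO livers (interaction adjusted *P* = 0.00376). *Fgb* (-1.41 ± 0.24, adjusted *P* = 0.00363) and *Fgg* (-1.22 ± 0.24, adjusted *P* = 0.0068), the other 2 chains, fell with it. *Saa1* and *Saa2*, serum amyloid genes with near-identical sequence, had the lowest log2 FCs of the list. *Saa1* was at 3065, 1773 and 3255 CPM in *Ahr* HKO control livers and at 54.2, 62.1 and 77.7 CPM in *Ahr* HKO ethanol livers, but 1 of the 3 WT control livers was low. The WT values were 31.5, 2571 and 2696 CPM on the control diet, against 82.3, 53.9 and 31.8 CPM on ethanol. Its additive log2 FC was -5.18 ± 0.78 (adjusted *P* = 0.0018), and that of *Saa2* -6.52 ± 1.02 (adjusted *P* = 0.00235). *Socs3*, the feedback inhibitor of STAT3, fell by 1.46 ± 0.35 (adjusted *P* = 0.0172).

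The iron genes *Tfrc* and *Hamp* had opposite signs. *Tfrc*, the transferrin receptor that takes up iron, rose from 6.31, 6.57 and 7.4 to 22.3, 20 and 31 CPM in WT and from 9.69, 7.78 and 11.3 to 23, 23.8 and 22.4 CPM in *Ahr* HKO livers, with no overlap, at 1.56 ± 0.15 (adjusted *P* = 0.000175). *Hamp*, which encodes hepcidin, the hormone that blocks iron export, had 560.3, 431 and 347 (control) and 256, 228 and 353 (ethanol) CPM in WT. Its *Ahr* HKO levels were 385, 848 and 1502 (control) and 173, 380 and 96.4 (ethanol) CPM. Its common call at a log2 FC of -1.38 ± 0.42 (adjusted *P* = 0.0449) was kept in 3 of 12 fits that left out 1 liver, with log2 FCs from -1.55 to -1.05, and the WT livers of the 2 diets overlapped. *Apcs*, serum amyloid P, was likewise called in 5 of the 12 (-2.29 to -1.58).

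Acute phase genes are known targets of STAT3, so matches in their windows test nothing about the diet. STAT factors bind TTCNNNGAA. These letters were in the windows of 5 of the 12 common acute phase and iron members with a window (41.7%), against 8.502% of the windows of all tested genes and 12.5% of those of all common genes lower on ethanol: *Apcs*, *Fga*, *Fgb*, *Socs3* and *Hamp*. The 250 bases before the start are shown for 3 of them, a fibrinogen pair and hepcidin, to place the letters (capitals), with the same source and orientation as above.
*Fga*, chr3:83025903-83026152, + strand: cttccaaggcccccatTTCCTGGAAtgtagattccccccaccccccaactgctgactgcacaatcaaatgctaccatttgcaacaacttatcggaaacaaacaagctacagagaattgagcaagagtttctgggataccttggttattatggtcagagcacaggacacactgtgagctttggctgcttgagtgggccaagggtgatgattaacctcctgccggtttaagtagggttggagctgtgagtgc
*Fgb*, chr3:83049864-83050113, - strand: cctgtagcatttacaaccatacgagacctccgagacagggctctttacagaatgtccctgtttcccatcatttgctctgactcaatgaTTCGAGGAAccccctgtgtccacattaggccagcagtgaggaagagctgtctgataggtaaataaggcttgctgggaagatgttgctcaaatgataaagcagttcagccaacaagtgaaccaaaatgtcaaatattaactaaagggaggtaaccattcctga
*Hamp*, chr7:30944030-30944279, - strand: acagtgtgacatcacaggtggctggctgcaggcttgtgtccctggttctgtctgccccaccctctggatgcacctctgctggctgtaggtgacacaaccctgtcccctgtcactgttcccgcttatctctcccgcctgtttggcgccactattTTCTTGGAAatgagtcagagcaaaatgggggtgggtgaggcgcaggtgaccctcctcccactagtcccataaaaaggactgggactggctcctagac

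The match lies 234 to 226 bases before the start of *Fga*, 162 to 154 before that of *Fgb* and 97 to 89 before that of *Hamp*. The share with a match among list members that were not common was not counted, and a match does not show binding.

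In cholesterol synthesis 5 of 24 tested genes were common and lower and none higher, with a list median of -0.64. *Idi1*, an isomerase of the isoprenoid pathway, had 155, 209 and 125 CPM in WT control and 60.3, 18.1 and 40.9 CPM in WT ethanol livers. Among *Ahr* HKO livers it had 186, 203 and 108 (control) and 99.6, 17.8 and 35 (ethanol) CPM. This gave a log2 FC of -1.87 ± 0.40 (adjusted *P* = 0.0102). All ethanol livers were below all control livers. *Hsd17b7*, a late enzyme of the pathway, fell by 1.06 ± 0.18 (adjusted *P* = 0.00351), and *Sqle*, squalene epoxidase, fell by 1.81 ± 0.46 (adjusted *P* = 0.0228). In WT livers 12 list members were called lower and none higher, and in *Ahr* HKO livers 1 was called lower and 3 higher. The sterol letters TCACNCCAC were in none of the 4 windows of common members and in 1.47% of all.

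**Figure D5:**
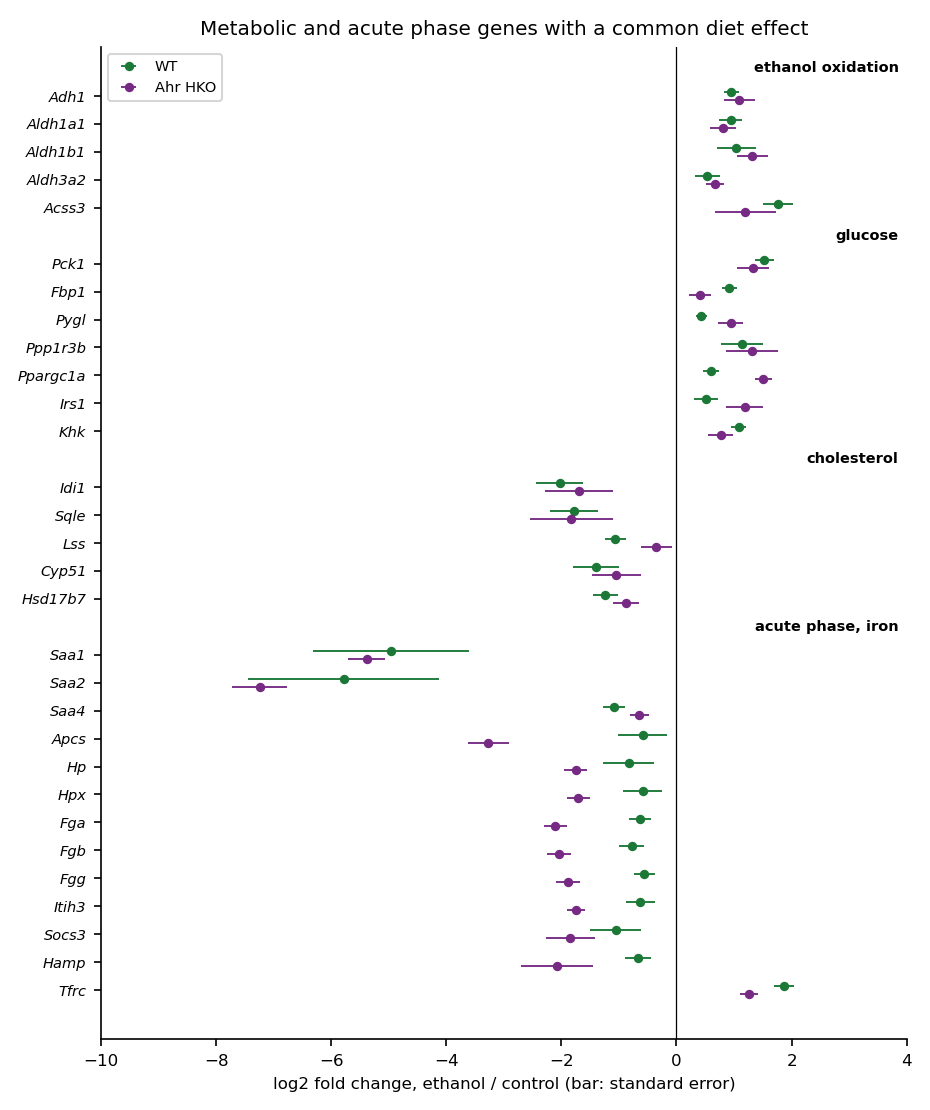
Log2 FC of ethanol against control diet in WT (green) and *Ahr* HKO livers (purple) with standard errors, for common genes of ethanol oxidation, glucose metabolism, cholesterol synthesis, and acute phase and iron (*Ppp1r3g* is not drawn). Ethanol oxidation and glucose genes lie right of 0 and cholesterol genes left of it, and the fibrinogen genes *Fga*, *Fgb* and *Fgg* lie farther left in *Ahr* HKO than in WT livers.

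In the bile acid list, 8 of 25 tested genes were common and higher and 1 lower. Apart from the efflux pumps *Abcc3* (1.32 ± 0.18, adjusted *P* = 0.00112) and *Abcc4*, *Cyp39a1*, an oxysterol hydroxylase, rose from 13.6 ± 3.64 to 46.9 ± 8.1 CPM in WT and from 14.4 ± 9.36 to 36.6 ± 5.41 CPM in *Ahr* HKO livers (1.56 ± 0.26, adjusted *P* = 0.00337). *Cyp7a1*, the rate-limiting enzyme of bile acid synthesis, had log2 FCs of -2.08 in WT and 1.28 in *Ahr* HKO livers and was not common. Of 17 tested glucocorticoid response genes, 6 were common and higher. Within WT 7 were called higher and none lower, and within *Ahr* HKO livers 1 was called higher and 4 lower. The common members included *Hsd11b1*, which regenerates the active hormone, with log2 FCs of 0.79 ± 0.15 in WT and 0.79 ± 0.18 in *Ahr* HKO livers (additive adjusted *P* = 0.00224), and *Tat*, tyrosine aminotransferase, at 1.19 ± 0.27 (adjusted *P* = 0.0122). *Tsc22d3*, which encodes the hormone-induced protein GILZ, rose by 1.38 ± 0.28 (adjusted *P* = 0.00715). The metallothioneins *Mt1* (0.12 and -3.20) and *Mt2* (0.41 and -3.13), also hormone-induced, had opposite signs in WT and *Ahr* HKO livers and were not common. In the circadian list 4 of 18 were common and higher, among them *Cry1*, a core repressor, at 1.12 ± 0.17 (adjusted *P* = 0.00189). Of 20 tested ATF4 targets 5 were common and higher, *Slc7a11* included, whose direction in *Ahr* HKO livers is void. WT livers had 9 called higher and none lower, and *Ahr* HKO livers had 4 called higher and 2 lower. The list medians were 1.36 and 0.02, and the interaction was called for 11. *Vldlr*, the receptor for very-low-density lipoprotein, rose from 1.49 to 14.6 CPM in WT and from 1.89 to 9.02 CPM in *Ahr* HKO livers (2.77 ± 0.44, adjusted *P* = 0.00252). *Trib3*, a pseudokinase, was common at 1.87 ± 0.39 (adjusted *P* = 0.00882).

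For sex-biased liver genes the counts differed between the genotypes. Of 20 tested female-biased genes, 6 were common and higher, whereas 11 were called higher in WT and 3 in *Ahr* HKO livers. Of 24 tested male-biased genes, 4 were common and lower, 18 were called lower in WT and 2 in *Ahr* HKO livers, 5 were called in opposite directions, and the interaction was called for 20. *Egfr*, the epidermal growth factor receptor, was 1 of the 4 and also the common member of the 18 growth hormone axis genes, with 391, 407 and 622 (control) and 145, 156 and 409 (ethanol) CPM in WT. In *Ahr* HKO livers the values were 947, 1238 and 1099 (control) and 275, 531 and 613 (ethanol) CPM. Over both genotypes the log2 FC was -1.10 ± 0.28 (adjusted *P* = 0.0215). *Moxd1*, a monooxygenase-like gene, had a lower additive log2 FC than *A2m* (-8.46 ± 1.52, adjusted *P* = 0.00433) but was not among the 398, since the diets overlapped in *Ahr* HKO livers, at 81.5, 7.25 and 0 CPM on the control diet and 0, 0.0617 and 0.631 CPM on ethanol. *C6*, a complement component, was another, with log2 FCs of -3.88 in WT and -0.93 in *Ahr* HKO livers (interaction adjusted *P* = 0.00437).

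Other lists held common members at shares near or below that of all tested genes. Of 36 tested genes of autophagy, AMPK and PP2A, 2 were common and higher and none lower (5.56%, against 4.46% of all genes), with a median of 0.02. *Prkaa2*, the catalytic alpha 2 subunit of AMPK, had 48.6, 45.3 and 41.1 (control) and 59.1, 64.3 and 82 (ethanol) CPM in WT. The *Ahr* HKO livers had 24, 30.8 and 21.9 (control) and 51.2, 53.9 and 55.2 (ethanol) CPM. The log2 FC was 0.83 ± 0.12 (adjusted *P* = 0.00162). *Ppp2r2d*, a regulatory subunit of PP2A, had log2 FCs of 0.51 ± 0.09 in WT and -0.28 ± 0.13 in *Ahr* HKO livers and was not called (additive adjusted *P* = 0.634; interaction adjusted *P* = 0.00499). None of the 12 tested kynurenine pathway enzymes was common, against 7.85% of all tested genes, a share at which a list of 12 can hold none. Within WT 2 of these 12 were called lower and none higher, and within *Ahr* HKO livers 4 were called higher and none lower. The list medians were -0.26 in WT and 0.47 in *Ahr* HKO livers. The interaction was called for 6 of the 12, against 22.3% of all tested genes. The first of the 12, *Tdo2*, had log2 FCs of -0.30 in WT and 0.60 in *Ahr* HKO livers. In the unfolded protein response list 1 of 23 (4.35%) was common. In the lists of the methionine cycle, and of the urea cycle and amino acid breakdown, 2 of 21 (9.52%) and 2 of 24 (8.33%) were. These are few genes, near the share of 7.85%. *Mtr*, methionine synthase, fell by 0.84 ± 0.16 (adjusted *P* = 0.00518).

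Markers of other cell types were compared, since in whole liver fewer cells of a type and less RNA per cell cannot be told apart. No tested marker was common among 8 of Kupffer cells and macrophages, 4 of neutrophils, 8 of lymphocytes and 7 of sinusoidal endothelial cells. Nor was any of 6 cholangiocyte, 1 pancreatic acinar and 6 cycling cell markers. With 7.85% of all tested genes common, lists this short can hold none, so unchanged cell content is not shown. Each of these lists had a negative median log2 FC, from -0.09 (neutrophils) to -0.57 (Kupffer cells and macrophages), and -2.10 for the 1 acinar marker. Of 8 hepatocyte markers *Cps1*, the first enzyme of the urea cycle, was common and lower (-0.60 ± 0.16, adjusted *P* = 0.0269, called in 7 of 12 fits without 1 liver). The summed Kupffer cell and macrophage markers ranged from 357 to 469 CPM in WT control, 318 to 820.3 CPM in WT ethanol, 314 to 898 CPM in *Ahr* HKO control and 201 to 248 CPM in *Ahr* HKO ethanol livers, and the lymphocyte markers from 12.6 to 15.3, 10.9 to 17.3, 11.5 to 25.8 and 6.31 to 8.95 CPM. In both lists the *Ahr* HKO livers on ethanol were the lowest, below their own control group. *Lrat*, the retinol-esterifying enzyme of stellate cells, was the common member of the 9 stellate and fibroblast markers (0.86 ± 0.21, adjusted *P* = 0.0183). *Cfd*, the only adipocyte marker that passed the filter, was common and lower (-3.69 ± 0.97, adjusted *P* = 0.0254), with 0.546, 0.607 and 0.266 CPM in WT control and 34.7, 0.512 and 2.26 CPM in *Ahr* HKO control livers, and 0, 0 and 0 CPM and 1.39, 1.84 and 0.654 CPM on ethanol. Without the highest of these livers it was no longer called, its log2 FC ranged from -4.22 to -2.19 with 1 liver left out, and it was called in 9 of 12 such fits. Among erythroid markers *Hba-a1* was common and lower (-3.78, called in 3 of 12 fits with 1 liver left out) while its near-identical copy *Hba-a2* had 1.33, and how reads were split between the copies is not known here. Whether any of these marker levels has a part in the common response was not tested.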

How the data were processed

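RNA-seq of 12 mouse livers in 4 groups of 3 was used. The authors deposited raw read counts per gene, and FPKM and TPM values that they scaled to gene length and library size. The submitters' processing notes name mm10, FastQC 0.11.7, Trimmomatic 0.38, HISAT2 2.1.0, Bowtie2 2.3.4.1 and StringTie 1.3.4d. TPM entered a check of sums only (924962 to 987569 per library). All 66 pairs of libraries differed in their counts.

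Groups were taken from the labels. Genes were kept with filterByExpr over the groups, scaled with TMM (factors 0.925 to 1.16) and tested with the quasi-likelihood method of edgeR 4.0.16 in R 4.3.3, as genotype plus diet over 12 libraries, diet within each genotype over 6, and the interaction over 12. *P* values were adjusted by Benjamini-Hochberg over all 14038 tested genes. Calls were made at an adjusted *P* value below 0.05 together with a change of over 1.5-fold, and the interaction had no minimum FC. On simulated counts of 14038 genes with 200 changed, the additive test recovered 89 of 100 genes changed 2-fold and 98 of 100 changed 4-fold, and called 13 unchanged genes. The simulated diet effects were equal in both genotypes, with no genotype effect and no interaction. The livers had many interactions, so these figures need not hold for them. CPM were computed from the counts, and the floor of 3 counts was 0.0425 to 0.0676 CPM, which covers counting error only. Alternatives used DESeq2 1.42.0, limma 3.58.1, other scalings, filters, designs and left-out livers.

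Named genes were the 10 largest increases and decreases among 398 genes called, of the same sign, with an FC above 1.5 and no overlap in each genotype and a mean count of at least 50, the 5 of each direction with the smallest *P* value at a mean count of at least 1000, members of gene or marker lists, and *Ahr*. Members and lists were chosen with earlier results of these data known. Single values of a few list members are not reported here. Motif letters were searched in RefSeq windows of GRCm38.p6, matched by Entrez identifier for 11127 of 14038 genes.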

Additional observations from a re-analysis of the deposited data

Results flagged for a closer look

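Of the 145 common genes named or counted in this report, 27 also passed the test of the interaction, so that their diet effect differed in size between the 2 genotypes. The interaction was called for 21.1% of all common genes and 22.3% of all tested genes, so it was not more frequent among the 145. The same sign was a condition of a common gene and no result. For some the FC in 1 genotype was small, such as *Abcg8* (0.10 in WT) and *Gclc* (0.15 in *Ahr* HKO livers). For those, an effect in both genotypes is not shown. The values below are the log2 FC in *Ahr* HKO livers minus that in WT livers, and the test is the interaction term of edgeR over 12 livers, with an adjusted *P* value under 0.05 for each.

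A rise was smaller in *Ahr* HKO than in WT livers for enzymes and transporters of foreign compounds and glutathione: *Abcc4* (-2.99), *Gsta1* (-3.97), *Gstm3* (-1.28), *Gclc* (-1.52) and *Htatip2* (-1.16). The same held for the female-biased or closely related *Cyp2a4* (-13.58) and *Cyp2a22* (-7.12), whose fitted differences rest on WT control livers with few or no reads, so that their size is poorly measured. It also held for the fatty acid transporter *Cd36* (-1.48) and the kinase *Pdk4* (-1.49), for the stress hormone *Gdf15* (-2.99), and for *Nfil3* (-0.94), *Sgk1* (-0.99) and *Zbtb16* (-1.26), which the clock or glucocorticoids regulate.

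A rise was larger in *Ahr* HKO livers for the sterol pump pair *Abcg5* (0.63) and *Abcg8* (1.24), for *Ppargc1a* (0.93) and for the PP2A subunit *Ppp2r5a* (0.72). A fall was larger in *Ahr* HKO livers for the acute phase genes *Apcs* (-2.67), *Fga* (-1.46), *Fgb* (-1.25), *Fgg* (-1.31) and *Itih3* (-1.11). A fall was smaller in *Ahr* HKO livers for *Fabp5* (1.35) and the male-biased *C6* (2.96) and *Cyp7b1* (2.27). The fitted differences for *Adgrf1* (5.68) and *Fmn2* (6.26) rest on WT ethanol livers with few or no reads, so their size is poorly measured. The *Ahr* HKO control livers stood apart from all other livers on the first principal component, and their part in these differences was not tested.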

How the results depend on the processing

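Over 145 named genes and 3027 alternative values, 2770 kept their direction and call, 257 kept the direction without the call, and none reversed. The 1105 genes called, 626 higher and 479 lower, became 582, 379 and 203 with limma on quantile-normalized log2(FPKM + 1), of which 582 had 1 direction in both genotypes. Without quantile normalization 637 were called, 151 of them lower, all 637 of 1 direction, and the share higher was 76.3% against 56.7%. A fit of 4 group means called 1619, 772 of them lower and 1401 of 1 direction, and DESeq2 called 1472, 1418 of 1 direction, against 1102 of 1105. Without a minimum FC 2233 were called (1198 higher, 1035 lower), and above a 2-fold change 489 (293 and 196). The 245 genes called in both genotypes became 402 with DESeq2 and 156 with limma on the quantile-normalized values. With 1 liver left out, called genes ranged from 780 to 1409, higher from 461 to 673, lower from 319 (without the second *Ahr* HKO control or ethanol liver) to 736 (without the second WT ethanol liver), genes of 1 direction from 777 to 1403, and genes called in both from 110 to 250. Livers of the same number and genotype did not deviate together (r -0.088 to -0.012 in 6 pairs). Over all 18 pairs of the same number r was -0.088 to 0.178, and over 36 pairs of other numbers -0.182 to 0.146. Deviations from means of 3 livers cannot show whether a number marks a shared litter, cage or day. A replicate block called 143 genes in both genotypes. The causes of these differences were not tested. Genes under the floor of 3 counts limit the folds at low levels.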

Other observations

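In the imprinted *Dlk1* to *Dio3* region on chromosome 12, some genes were common and higher on the ethanol diet. The region was chosen after its values were seen. Of 7 genes looked up, 5 were tested and 3 were common and higher, against 4.46% of all tested genes. *Meg3*, a maternally expressed noncoding RNA, had 3.62, 2.48 and 5.5 CPM in WT control and 112, 22.3 and 25.1 CPM in WT ethanol livers, and 3.01, 4.06 and 11.2 and 64.8, 49.6 and 84.8 CPM in *Ahr* HKO livers (3.62 ± 0.48 on the log2 scale, adjusted *P* = 0.000832). *Rian*, its neighbour, had 0.917, 1.04 and 1.68 and 26.3, 7.04 and 9.55 CPM in WT and 0.849, 1.37 and 2.92 and 19.1, 14.4 and 26.4 CPM in *Ahr* HKO livers (3.55 ± 0.39, adjusted *P* = 0.000329). The 6 ethanol livers stood above the 6 control livers for both. *Mirg* (1.22 ± 0.46, adjusted *P* = 0.0907) and *Dio3* (2.12 ± 0.78, adjusted *P* = 0.0834) were not called, and the paternally expressed *Rtl1* had no read in any liver.

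Beside *Cyp26a1*, 19 retinoid genes were looked up after its values were seen, *Cyp26a1* included. Of 17 tested, 5 were common and higher and 1 lower, with a median log2 FC of 0.11. Of all tested genes 4.46% were common and higher and 3.39% common and lower. *Rarb*, a receptor for retinoic acid that is also its target, had 3.73, 3.09 and 2.78 CPM in WT control, 4.12, 5.06 and 6.91 CPM in WT ethanol, 1.27, 1.31 and 1.39 CPM in *Ahr* HKO control and 5.03, 1.99 and 2.3 CPM in *Ahr* HKO ethanol livers (0.98 ± 0.24, adjusted *P* = 0.0173). *Dhrs3*, a retinaldehyde reductase, had -0.08 in WT and 1.55 in *Ahr* HKO livers, and *Cyp26b1* -0.14 and 0.70, and neither was called.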
